A study of Mus musculus with 6 samples.

Results

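C3H10T1/2 cells are a mouse mesenchymal line of embryonic origin that can be driven into bone, cartilage, fat or muscle cells in culture. The comparison described here is between day 7 and day 0 of osteogenic culture in shControl cells, the derivative of this line that carries a control short hairpin RNA and whose genotype is given as WT. The day 0 cells were collected at confluence without inducers, and the day 7 cells after 7 days in medium with dexamethasone at 0.1 µM, β-glycerophosphate at 20 mM and ascorbic acid 2-phosphate at 100 µg/ml. The 2 knockdown lines of the series were sampled on the same days, shNFIB, in which the hairpin targets the transcription factor gene Nfib, and shMLL1, in which it targets Kmt2a, whose product is the histone methyltransferase MLL1. Each line and day gave 1 library. Of the 55401 genes in the count table, 29043 had at least 1 count in any of the 6 libraries, and the 15069 genes with 20 or more counts in either shControl library were compared. These genes held 99.9% of the counts of each shControl library. At the limit of this choice stood 103 genes with 20 counts in their higher library, just inside, and 136 genes with 19, just outside.

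Osteoblast formation from mesenchymal cells is known to involve an exit from the cell cycle, the action of transcription factors such as Runx2, Dlx5 and Sp7, secretion of a matrix rich in type I collagen, and mineralization of that matrix by phosphatases such as the product of Alpl. In the medium, β-glycerophosphate is a source of phosphate and ascorbate a cofactor of the enzymes that hydroxylate collagen. Dexamethasone is a synthetic glucocorticoid that activates the glucocorticoid receptor, the product of Nr3c1, and is also a usual component of media that produce fat cells.

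Levels are given as CPM, the counts of a gene relative to the total of its library, after TMM scaling (edgeR's correction for composition) across all 6 libraries, and the ratio of a gene is its level at day 7 over its level at day 0. A gene was called higher or lower where its ratio passed 2-fold and the 95% exact interval of the ratio (Clopper-Pearson) left out no change. These intervals cover counting error only, because shControl cells gave 1 library per day and no second culture, so the calls have no replicate check and no p-value was computed for them. A test was possible for the day effect over the 3 lines, by edgeR's quasi-likelihood method with the line as a block. It called 2713 of 15741 genes higher (17.2%) and 2719 lower (17.3%). Its adjusted p-values weigh the change against the spread between 3 lines that carry different hairpins and include shControl itself, and "rose" and "fell" are used below only for genes that passed it at 5%. The annotation release and the strand setting used in counting were not given in the sources used here, and reads with a mapping quality of 30 or less had been removed. Values of genes with near-identical copies, and of genes that overlap another on the opposite strand, are therefore uncertain.

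The total was 32662704 counts at day 0 and 29086652 at day 7 in shControl, within a range of 21608680 to 34774066 over the 6 libraries. A level of 20 counts corresponded to 0.626 CPM at day 0 and 0.656 CPM at day 7, and a gene with 0 counts was set to 3 counts (0.0939 or 0.0984 CPM) to give a lower bound of its ratio. The median width of the interval on the log2 scale was 2.48 for genes with 20 to 50 counts in the 2 libraries together and 0.21 for genes with 2000 to 5000. Of 11 genes listed as mesenchymal surface and fibroblast markers, 9 passed the count limit. Among them Pdgfra had 5563 and 9794 counts at day 0 and day 7, Pdgfrb 9973 and 11069, and Vcam1 5451 and 5268, while Vim, Cd44, Ly6a, Itgb1 and Thy1 were called lower. Defining markers of other cell types were at or near 0 on both days. Ptprc and Adgre1 (blood cells and macrophages), Cdh5 and Kdr (endothelium), Epcam (epithelium), Sox10 (glia), and Myod1 and Myog (skeletal muscle) had at most 2 counts in either library. Other listed markers of those types were present and mostly lower at day 7, such as Tek (566 and 77 counts), Cdh1 (286 and 34) and Tubb3 (289 and 6). Summed over each list, the level was 24.6 and 26.6 CPM for blood cells (2 of 3 measured genes higher), 20.8 and 3.54 CPM for endothelium, 9.24 and 1.21 CPM for epithelium, 92.6 and 45.8 CPM for nerve cells and 3.91 and 0.984 CPM for skeletal muscle. In bulk RNA, a lower level of a gene in every cell and a smaller share of cells that express it cannot be told apart.

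At day 7, 3018 genes were called higher (20.0% of the 15069) and 2205 lower (14.6%). The median log2 ratio over all genes was -0.06, with quartiles of -0.65 and 0.75, and 6602 genes (43.8%) stayed within 1.5-fold. Ratios over 4-fold were found for 1362 genes higher and 660 lower, and ratios over 16-fold for 207 and 82. Genes called higher held 6.17% of the counts at day 0 and 23.9% at day 7, and genes called lower 23.95% and 9.33%. The excess of higher calls lay in weakly counted genes and in genes that do not code for protein. Of the 12392 protein-coding genes 1840 (14.8%) were called higher and 1876 (15.1%) lower, with a median of -0.14. The numbers called in the gene lists below were not tested against these shares, and some lists lie near them. Of the 15069 genes 1429 had under 20 counts at day 0 and 516 at day 7. These passed the count limit through the other day alone, which made a call in that direction likely, also within the lists. The plot of ratio against level shows the same for all genes, with the calls at low levels on the whole above 0.

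**Figure D1:**
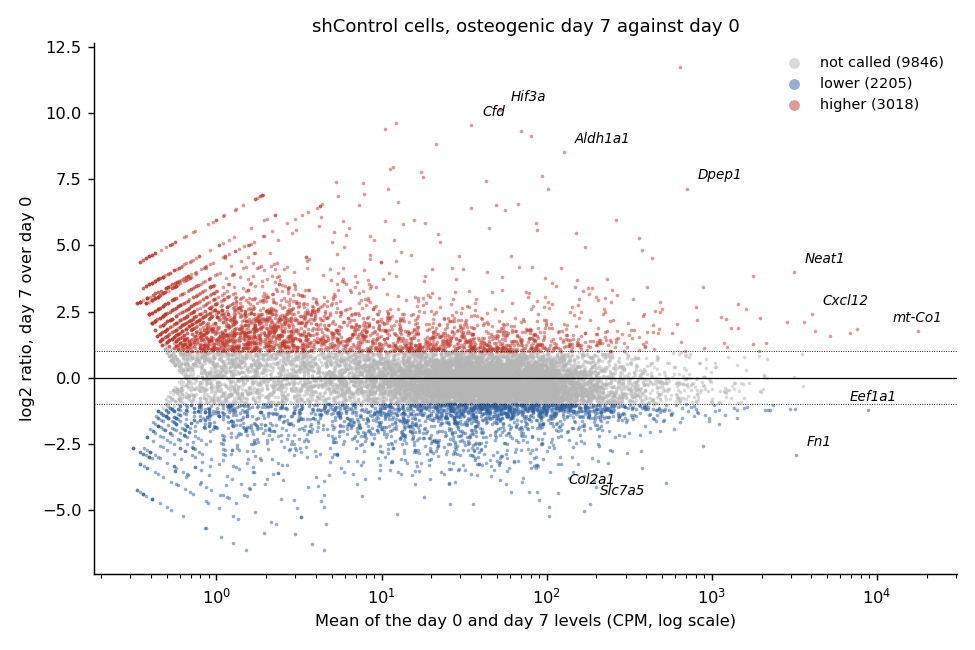
Log2 ratio of day 7 over day 0 in shControl cells (vertical axis) against the mean of both levels (CPM, log axis) for the 15069 genes, each point being 1 gene and the dotted lines marking 2-fold. Red points are the 3018 genes called higher and blue points the 2205 called lower, genes at 0 counts in a library are placed at their bound against 3 counts (the slanted rows at the left), and the spread of ratios narrows towards higher levels.

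Genes known to be induced by glucocorticoids were higher at day 7 as a group. Of 22 measured members of this list 15 were called higher and 1 lower, with a median log2 ratio of 1.85 against -0.06 for all genes. Hif3a (chr7:17031507-17062427 on GRCm38, minus strand), a member of the hypoxia-inducible factor family, had 0 counts at day 0 and 3178 at day 7, at least 1110-fold higher against the floor of 3 counts. Zbtb16, the gene for the zinc finger protein PLZF, had 0 and 1296 counts, at least 453-fold higher. Pdk4, which encodes a kinase that shuts off pyruvate dehydrogenase, went from 115 to 5243 counts, a log2 ratio of 5.58 (95% interval 5.31 to 5.86). The list thus held genes that were undetected before differentiation and ranked among the larger ratios a week later. Hif3a and Zbtb16 passed the count limit through day 7 alone, which left a higher call as the only likely result.

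Classical receptor targets with high counts on both days followed the same direction. Fkbp5, whose product is a co-chaperone that restrains the receptor, had 810 and 8323 counts (log2 ratio 3.43, 3.32 to 3.53). Tsc22d3, the gene for the glucocorticoid-induced leucine zipper, had 1900 and 13054 counts (2.85, 2.78 to 2.92). The kinase gene Sgk1 (3.28), the receptor tyrosine kinase inhibitor Errfi1 (3.06), glutamine synthetase Glul (3.01) and the lipoprotein lipase inhibitor Angptl4 (2.97) were about as much higher, and the metallothioneins Mt2 (1.99) and Mt1 (1.76), the clock gene Per1 (1.89) and the Krüppel-like factors Klf9 (1.81) and Klf15 (1.67) less so. Nr3c1, which encodes the receptor, was the member called lower, with 4624 counts at day 0 and 1357 at day 7 (-1.70, -1.79 to -1.61). Of the 22 members 16 rose and 1 fell over the 3 lines (edgeR, adjusted p of 0.000582 for Hif3a, Pdk4 and Sgk1 and 0.0291 for the fall of Nr3c1). Hsd11b1, which regenerates active glucocorticoid, was not called in shControl (1415 and 1170 counts, -0.21), and neither were Dusp1, Ddit4, Cebpd and Crispld2.

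**Figure D2:**
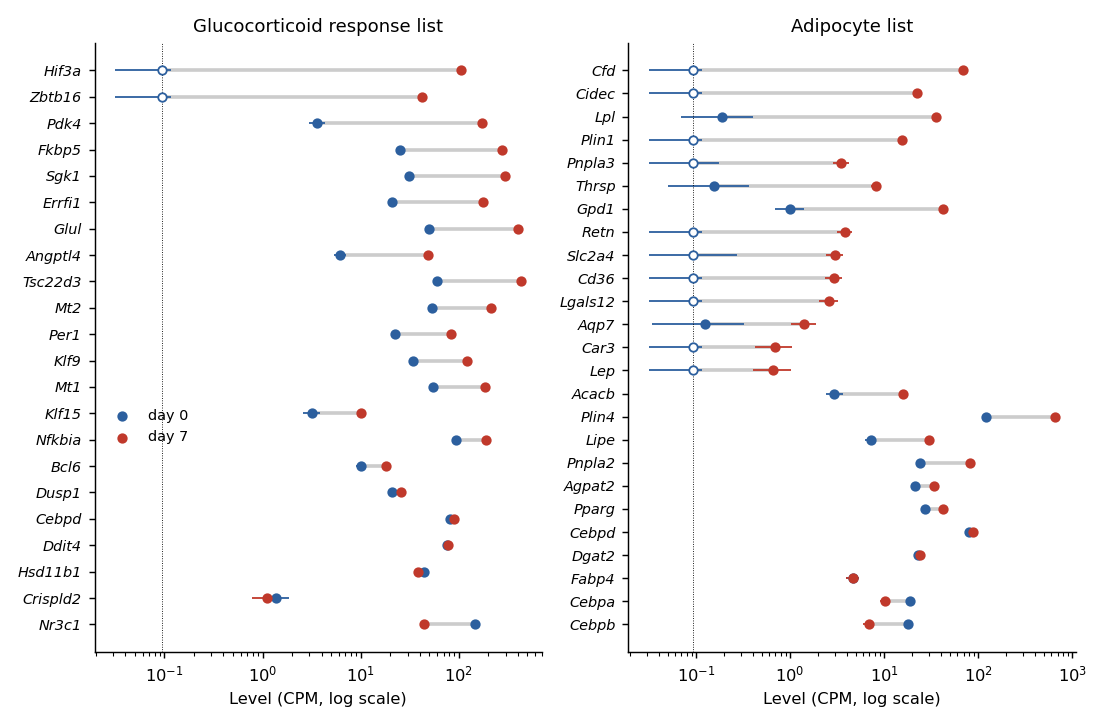
Levels in CPM (log axis) at day 0 (blue) and day 7 (red) of the members of the glucocorticoid response list (left, 22 genes) and the adipocyte list (right, 25 genes) in shControl, with exact Poisson 95% intervals as lines. Open symbols are levels of 3 or fewer counts, drawn no lower than the floor of 3 counts (dotted line), and the longest grey bars belong to Hif3a and Zbtb16 on the left and to Cfd and Cidec on the right.

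Genes of fat cells were also higher, but unevenly. Of 25 measured members of the adipocyte list 18 were called higher and 1 lower, with a median log2 ratio of 2.88. Cfd, which encodes adipsin (complement factor D), had 0 counts at day 0 and 2129 at day 7, at least 744-fold higher. The lipid droplet genes Cidec (0 and 681 counts) and Plin1 (0 and 472) were at least 238-fold and 165-fold higher. Lpl, the lipase that releases fatty acids from lipoproteins, had 6 and 1084 counts, a log2 ratio of 7.57 with an interval of 6.44 to 9.01. These 4 genes were at or close to 0 in undifferentiated cells, as were Thrsp (5 and 251 counts), Retn (0 and 117) and the fatty acid receptor Cd36 (0 and 89). All of them passed the count limit through day 7 alone, which left a higher call as the only likely result. The number called higher and the median of the list are raised by this choice, and some ratios in it are bounds.

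Other markers of the same lineage did not move with them. Adipoq, the gene for the adipocyte hormone adiponectin, had 1 count at day 0 and 0 at day 7, and Fabp4, the fatty acid binding protein of fat cells, 148 and 141 counts (-0.00, -0.35 to 0.34). Of the transcription factors that direct the lineage, Pparg had 867 and 1279 counts (0.63), Cebpa 608 and 313 (-0.89) and Cebpb 576 and 209 (-1.40, called lower). The lipolysis genes Pnpla2 (1.75) and Lipe (2.04) and the droplet coat gene Plin4 (3921 and 19877 counts, 2.41) were called higher. Of the 14 members tested over the 3 lines 7 rose and Cebpb fell (edgeR adjusted p = 0.00583). Over the members measured in shControl, the median was 0.97 in the shNFIB line and 0.76 in the shMLL1 line. Because some of these members passed through shControl day 7 alone, these medians are not on equal terms with that of shControl. Counts of 0 in those lines were also set to 3. Of 11 genes listed for brown or beige fat 4 were measured, of which Cox8b (0 and 52 counts) and Ppargc1a (414 and 1349) were called higher, and Ucp1 and Prdm16 had no counts.

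Transcription factors of the osteoblast lineage were split. Of 12 measured members of the list 6 were called higher and 3 lower, and 4 more genes stayed under 20 counts. Twist2, which encodes a repressor, had 210 and 684 counts (log2 ratio 1.77). Cbfb, the partner that Runx proteins need to bind DNA, had 2606 and 7411 counts (1.58, 1.51 to 1.64), and the coactivator Fhl2 395 and 1106 (1.55). In the same direction Dlx5 and Runx2 had ratios of 2.04 and 1.83. Runx3, a further member of the Runx family, went the other way with 1115 counts at day 0 and 109 at day 7 (-3.29, -3.59 to -3.00), and Runx1 (-1.08) and Atf4 (-1.08) were called lower. Sp7, the gene for osterix, had 1 and 7 counts, Msx2 8 and 9, and Dlx3 and Dlx6 none. Over the 3 lines Cbfb and Fhl2 rose and Runx3 fell, with edgeR adjusted p-values of 0.0241, 0.00283 and 0.00082. Dlx5 (0.073), Runx2 (0.232), Runx1 (0.055) and Atf4 (0.0602) did not pass that test.

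The bone matrix genes did not move together. Of 9 measured members 3 were called higher and 3 lower. Col1a1 and Col1a2 encode the chains of type I collagen, which occur together in the triple helix. Col1a1 had 33339 counts at day 0 and 77013 at day 7 (log2 ratio 1.28, 1.26 to 1.29), whereas Col1a2 had 141934 and 59384 (-1.19, -1.20 to -1.18). The fibril collagen genes Col3a1 (-1.21), Col5a1 (-1.05) and Col5a2 (-1.24) were called lower with Col1a2, and so was Sparc, which encodes the collagen-binding protein osteonectin (100492 and 47477 counts, -1.01). The other member called higher beside Spp1 (osteopontin, 2.67) and Col1a1 was Ifitm5, a membrane protein gene of osteoblasts, with 10 and 79 counts (3.05, 2.10 to 4.16). Ifitm5 rose over the 3 lines (edgeR adjusted p = 0.037). Col1a1 (0.182), Spp1 (0.163), Col1a2 (0.0579) and Sparc (0.0727) did not pass that test. Ibsp, the gene for bone sialoprotein, had no counts, Bglap (osteocalcin) 4 and 13, and Dmp1 3 and 15. Of these 3 genes, none reached the count limit.

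Among 11 mineralization genes 4 were called higher and 2 lower. Mgp, whose product inhibits calcification, had the most counts of them at day 7, 49493 against 4828 at day 0 (log2 ratio 3.43, 3.38 to 3.47), and rose over the 3 lines (edgeR adjusted p = 0.000912). Alpl had 7 and 111 counts (4.05, 2.96 to 5.40), and Enpp1, which makes the mineralization inhibitor pyrophosphate, 248 and 668. Ahsg, the gene for fetuin-A, another inhibitor, was at 0 and 27 counts. Ank, a pyrophosphate exporter (7514 and 3212 counts, -1.16), and Phex (53 and 25, -1.02) were called lower, and the phosphate transporters Slc20a1 and Slc20a2, at -0.80 and -0.62, were not called in shControl and fell over the 3 lines (edgeR adjusted p = 0.0127 and 0.0349).

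Enzymes that fold, trim and crosslink collagen were lower on balance, with 4 of 25 measured members called higher, 6 lower and a median log2 ratio of -0.64. Of all protein-coding genes 14.8% were called higher and 15.1% lower, with a median of -0.14. Loxl4, a lysyl oxidase that crosslinks collagen, had 4894 and 463 counts (-3.34, -3.48 to -3.20), and Lox itself 60393 and 25954 (-1.15). The collagen chaperone Serpinh1 (-1.26), the prolyl hydroxylase subunits P4ha1 (-1.36) and P4ha3 (-1.24) and the proteinase enhancer Pcolce2 (-2.68) were the other members called lower. Bmp1, the proteinase that removes the C-terminal propeptide of collagen, had 7196 and 17343 counts (1.34, 1.30 to 1.38), and Loxl3 (1.24), Loxl2 (1.71) and the procollagen proteinase Adamts14 (1.64) were called higher with it. Lysyl oxidases were thus found on both sides. Over the lines 3 members rose and 10 fell, out of 25 tested.

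Cartilage genes divided in the same way, 4 of 12 measured members higher and 4 lower, beside 14.8% and 15.1% of all protein-coding genes. Col2a1, the gene for the main collagen of cartilage, had 7124 counts at day 0 and 334 at day 7 (-4.35, -4.51 to -4.19), and Col11a1, which forms fibrils with it, 5945 and 1555 (-1.87). In contrast, Col11a2 had 146 and 942 counts (2.76), Comp, the cartilage oligomeric matrix protein gene, 30 and 767 (4.74, 4.22 to 5.32), and Sox5, a cofactor of Sox9, 15 and 89 (2.64). Sox9 was not called (5962 and 3628 counts, -0.65) and the aggrecan gene Acan had no counts. Comp rose and Col2a1 fell over the 3 lines (edgeR adjusted p = 0.000582 and 0.00767). Of the small leucine-rich proteoglycans, which coat collagen fibrils, Lum had 21 and 502 counts (4.65, 4.02 to 5.35), Ogn 21748 and 51263 (1.30) and Ecm2 456 and 1459 (1.75), while Bgn, with 126295 and 98156 counts, and Dcn were not called. Fmod (49 and 13 counts) and Epyc (39 and 15) were called lower.

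Fibronectin and smooth muscle actin genes had much lower counts at day 7. Fn1 (chr1:71585520-71653200 on GRCm38, minus strand), the gene for fibronectin, had 181551 counts at day 0 and 22780 at day 7, 7.61-fold lower, and after Eef1a1 it had the largest fall in CPM of all protein-coding genes. Acta2, the actin of smooth muscle and myofibroblasts, had 48439 and 7768 counts (log2 ratio -2.57, -2.61 to -2.54), and Actg2 263 and 10 (-4.65). The list of smooth muscle genes was not lower throughout: of 12 measured members 5 were called lower and 2 higher (Synpo2 2.46 and Myh11 3.07, the latter from 3 and 24 counts), and Myocd had no counts. Of 26 other collagen genes 5 were called higher and 10 lower, with Col8a1 at 1100 and 46 counts (-4.51), Col4a5 at 6080 and 1716 (-1.76) and Col27a1 at 351 and 1519 (2.18). Of 20 genes of the TGF-β pathway and its targets, Tgfbr3 (1.29) was called higher and Fn1, Ltbp1 (-1.39) and the activin subunit gene Inhba (546 and 76 counts, -2.78) lower, while the targets Ccn1, Ccn2 and Thbs1 were not called. Over the 3 lines Fn1 and Acta2 fell (edgeR adjusted p = 0.0288 and 0.00113), with ratios for Fn1 of -1.29 in shNFIB and -0.98 in shMLL1.

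Proteases of the matrix and their inhibitors were found on both sides. Timp4, which encodes a metalloproteinase inhibitor, had 1 and 742 counts (log2 ratio 9.60, 7.12 to 14.91), whereas the inhibitor genes Timp1 (5873 and 2083 counts, -1.43) and Timp3 (13646 and 2773, -2.23) were called lower and Timp2 (63090 and 65130, 0.11) was not called. Among the enzymes Mmp2, a gelatinase gene, had 8575 and 26598 counts (1.70, 1.67 to 1.74), and Mmp19 (1.47), Mmp23 (2.69), Adamts4 (234 and 778 counts), Adamts8 (0 and 118 counts) and Adamts15 (11 and 633 counts, 5.91) were called higher. Mmp16 (-3.00) and Adamts5 (14741 and 4370 counts, -1.69) were lower. In all 8 of 17 measured members were called higher and 4 lower, beside 14.8% and 15.1% of all protein-coding genes. Timp4, Adamts8 and Adamts15 passed the count limit through day 7 alone, which made a higher call likely. The summed level of the list was 4398 CPM at day 0 and 4925 CPM at day 7. Of 18 tested over the lines, 9 rose and 3 fell.

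**Figure D3:**
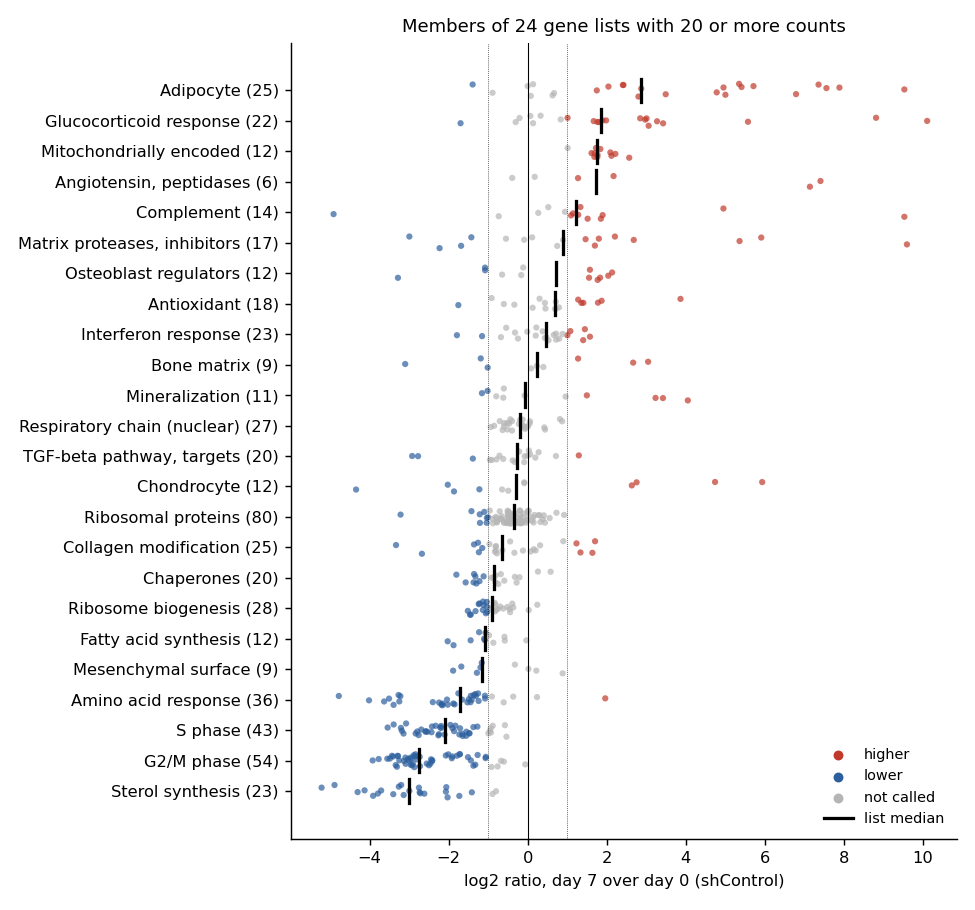
Log2 ratio of day 7 over day 0 in shControl (horizontal axis) for the measured members of 24 gene lists, with the number of members in brackets, each point being 1 gene and the black bar the median of the list. Red and blue points are genes called higher and lower, dotted lines mark 2-fold, genes at 0 counts stand at their bound, and the lists run from the adipocyte list, with a median of 2.88, down to the sterol synthesis list at -3.00.

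Genes of dividing cells were lower with almost no exception. Of 54 members of the G2/M list, which serve mitosis, 49 were called lower and none higher, with a median log2 ratio of -2.76, and of 43 S phase genes, which serve DNA replication, 36 were called lower and none higher (median -2.11). Over the 3 lines 52 of the 54 and all 43 fell by edgeR's test. Kif11, a kinesin of the spindle, had 4256 counts at day 0 and 267 at day 7 (-3.93). Cdc20, an activator of the anaphase-promoting complex, had 3462 and 311 (-3.41), and Mki67, the gene of the proliferation marker Ki-67, 8074 and 563. Among the replication genes, Mcm5, a subunit of the replicative helicase, had 4995 and 453 counts (-3.40, -3.54 to -3.26) and Cdc6, which loads that helicase, 1135 and 128 (-3.08). The maintenance methylation genes Uhrf1 (-3.55) and Dnmt1 (-1.75), which act at the replication fork, and the Polycomb genes Ezh2 (-1.29) and Suz12 (-1.22) were called lower, whereas Ezh1, the alternative to Ezh2 in that complex, had 1844 and 6243 counts (1.83, 1.75 to 1.90).

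The mitotic genes are known to share promoter elements, a CHR element (TTTGAA) downstream of CCAAT boxes, bound by the DREAM and MuvB complexes and by NF-Y, and replication genes often hold E2F sites. For the 3 members called lower with the lowest ratios among those that had both upstream of the start, the stretches below show these letters in RefSeq promoter windows on GRCm38.p6, in the direction of the gene, with 1 match of each in capitals (ATTGG and TTCAAA are CCAAT and TTTGAA on the other strand). Kif11 lies on the plus strand at chr19:37376325-37376380, Mki67 on the minus strand at chr7:135716460-135716532, and Cdc20 on the minus strand at chr4:118437344-118437408. There were 21, 38 and 30 bases between the capitals. The choice required CCAAT before TTTGAA with at most 50 bases between them, so their order and closeness are no result. Genes with more than 1 window were passed over. The Mki67 stretch holds another TTTGAA, in lower case, between its capitals, and the Cdc20 stretch another CCAAT after them.
Kif11: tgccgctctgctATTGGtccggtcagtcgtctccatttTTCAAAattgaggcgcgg
Mki67: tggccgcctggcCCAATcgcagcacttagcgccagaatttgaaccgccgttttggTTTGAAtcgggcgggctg
Cdc20: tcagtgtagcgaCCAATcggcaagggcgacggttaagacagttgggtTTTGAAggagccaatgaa
Of the 54 G2/M members 47 had a window of 250 bases before to 50 after the start. TTTGAA stood on either strand in 32 of them (68.1%) and CCAAT in 36 (76.6%), against 18.1% and 37.9% of all 27025 windows in the table. A match is a description of the letters and was not tested as a binding site.

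For replication genes, chosen in the same way, the capitals mark an E2F octamer (TTTGGCGC, TTTCCCGC, TTTGCCGC or TTTCGCGC, on either strand), which 2.32% of all windows hold. Mcm5 lies at chr8:75109348-75109379, Cdc6 at chr11:98908001-98908032 and Hells, a chromatin remodeller gene with 3582 and 492 counts, at chr19:38930916-38930947, all on the plus strand.
Mcm5: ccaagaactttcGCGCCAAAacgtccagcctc
Cdc6: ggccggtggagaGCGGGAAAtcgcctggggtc
Hells: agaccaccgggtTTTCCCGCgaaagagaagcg
Only 31 of the 43 S phase members had a window, so no share was taken over that list.

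Regulators that hold cells out of the cycle moved less. Of 16 measured genes for CDK inhibitors, RB family members, D cyclins and their relatives, 3 were called higher and 2 lower. Cdkn1b, the gene for p27, had 4303 and 7096 counts (0.79), Cdkn1a, the gene for p21, 6646 and 4846 (-0.39), and Rb1 1429 and 962 (-0.50), none of them called. Called higher were Trp53inp1 (1.47), Ccng2 (1.24) and Sesn1 (1.11), which all rose over the 3 lines (edgeR adjusted p = 0.00605, 0.00338 and 0.0266). Ccnd1, the gene for cyclin D1, had 11441 and 4703 counts (-1.22), and Rbl1, the p107 gene, 1784 and 436 (-1.97).

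A further large group of lower genes served amino acid supply. ATF4 is a transcription factor that raises transporters, amino acid synthesis and tRNA synthetases when amino acids or protein folding are limiting. Of 36 measured members of this list 31 were called lower and 1 higher, with a median log2 ratio of -1.71. Slc7a5, the transporter of large neutral amino acids, had 11201 counts at day 0 and 388 at day 7 (-4.78, -4.93 to -4.64), 27.6-fold lower, and the pseudokinase gene Trib3 3397 and 200 (-4.02). In the serine pathway Psat1 had 22080 and 2001 counts (-3.40), Phgdh 14368 and 3084 (-2.15) and Shmt2 8633 and 1557 (-2.40). Asparagine synthetase, Asns, had 8924 and 894 counts (-3.25), and the tRNA synthetase genes Aars, Gars and Iars had ratios of -2.16, -2.18 and -2.04. The member called higher was Slc7a3, a transporter of cationic amino acids, with 25 and 93 counts (1.96). Over the 3 lines 27 of the 36 fell and Slc7a3 rose (edgeR adjusted p = 0.04). The shNFIB line had a median of -1.03 and the shMLL1 line one of -2.53.

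ATF4 and C/EBP proteins bind composite sites with the letters TGATGCAA, which 0.929% of the 27025 windows hold on either strand. The capitals below mark it (TTGCATCA is the other strand) in the 2 members called lower with the lowest ratios among those that had it upstream of the start. Chac1, which encodes an enzyme that breaks down glutathione, lies on the plus strand at chr2:119351037-119351068 and had 1408 and 108 counts. Pycr1, of proline synthesis, lies on the minus strand at chr11:120643832-120643863 and had 2236 and 221 counts.
Chac1: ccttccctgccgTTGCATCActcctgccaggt
Pycr1: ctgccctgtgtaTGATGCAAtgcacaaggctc
Windows were held for 28 of the 36 members, too few for a share.

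Genes of ribosome assembly and protein folding were lower to a smaller degree. Of 28 ribosome biogenesis genes 13 were called lower and none higher (median log2 ratio -0.90), among them the nucleolar genes Npm1 (25921 and 12053 counts, -1.04) and Nop58 (-1.46) and Myc (1154 and 471, -1.23). Of 20 chaperone genes 8 were called lower and none higher (median -0.84), with Hsp90ab1 at 93334 and 38186 counts (-1.22), while the endoplasmic reticulum chaperone Hspa5 was not called (-0.87). Ribosomal protein genes had a median of -0.36, with 8 of 80 called lower, and many of them have processed copies elsewhere in the genome. Eef1a1, the elongation factor that took the most counts at day 0, had 395897 and 161306 (-1.23). Over the 3 lines 14 ribosome biogenesis genes, 9 chaperone genes and 14 ribosomal protein genes fell and none rose (edgeR).

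The cholesterol pathway was lower at nearly every step. Of 23 measured genes of sterol synthesis and uptake 21 were called lower and none higher, and the median log2 ratio of -3.00 was an 8-fold lower level. Hmgcs1, which acts early in the pathway, had 13606 and 1408 counts (-3.21). Sqle, the squalene epoxidase, had 11583 and 733 (-3.92), and Cyp51, which demethylates lanosterol, 11957 and 651 (-4.13). Srebf2, the gene for the transcription factor that drives the pathway, had 11763 and 1273 counts (-3.14). Tm7sf2 and Ebp were the members not called. Over the 3 lines 21 of the 23 fell, and the smallest edgeR adjusted p was 0.000582, shared by Cyp51, Fdps, Idi1, Msmo1 and Srebf2.

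CCAAT boxes, bound by NF-Y, are also known from sterol gene promoters, close to SREBP sites. The capitals mark the box in Cyp51 (minus strand, chr5:4104710-4104738), Idi1 (plus strand, chr13:8885580-8885605; 4263 and 293 counts) and Msmo1 (minus strand, chr8:64733617-64733645; 9981 and 727 counts).
Cyp51: cgctgtccgccaCCAATctggtcctgaga
Idi1: gtccaaggtgccATTGGctggcgacc
Msmo1: gagtggggcggaCCAATtacgacaggcga
The box is common (37.9% of all windows), and 16 of the 23 members had a window, too few for a share.

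Other parts of lipid and energy metabolism moved less. Of 12 genes of fatty acid synthesis 7 were called lower, among them Acly (12177 and 2852 counts, -2.03), the desaturase gene Fads2 (-1.88) and Fasn (-1.07), and the transcription factor gene Srebf1 was not called (1317 and 1227 counts, -0.04). Of 16 measured genes of fatty acid oxidation 4 were called higher, among them Pdk4, Ucp3 (0 and 21 counts) and Cpt1b (15 and 56), and the enzymes Acadm, Acadvl and Cpt1a were not called. In glycolysis Ldha had 24904 and 5945 counts, Pkm 46235 and 14313 (-1.62), Eno1 21341 and 6987 (-1.54) and Pgk1 22016 and 8595 (-1.29), whereas the hypoxia-responsive genes Vegfa (2867 and 6505, 1.25) and Car9 (48 and 116, 1.34) were called higher. In all 9 of 25 measured genes of that list were called lower and 5 higher. Gapdh, to which the paper normalized its RT-qPCR values, was chosen after its values were seen. It had 403 and 414 counts in shControl, 12.6 and 13.6 CPM (log2 ratio 0.11). The ratio was 1.10 in shNFIB and -1.30 in shMLL1, and Gapdh was not called over the 3 lines (edgeR adjusted p = 0.976). Whether the removal of reads with low mapping quality reduced its counts was not tested.

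Of 13 mitochondrially encoded genes 12 were measured, and 11 of these were called higher. Their summed level was 19430 CPM at day 0 and 68850 CPM at day 7, and the mitochondrial share of all counts was 2.01% and 7.77%. mt-Co1 had 257675 and 837167 counts (log2 ratio 1.77, 1.76 to 1.77), the most of all genes at day 7. The nuclear genes for subunits of the same respiratory chain did not follow, with 0 of 27 called in either direction and a median of -0.19. In the knockdown lines the mitochondrial share went from 2.31% to 4.78% (shNFIB) and from 2.65% to 5.71% (shMLL1), and 7 of the 12 genes rose by edgeR's test. Low counts of mt-Co2 (398 and 1258), mt-Co3 and mt-Atp6 stood beside these high ones.

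Secreted proteins of defence and transport were among the genes with more counts at day 7. Of 14 measured complement genes 9 were called higher and 1 lower (median log2 ratio 1.21). C3, the central component, had 19467 and 69199 counts (1.90, 1.87 to 1.92), and C4b 339 and 10039 (4.96, 4.80 to 5.12), while Cd55, which protects cells from complement, had 190 and 6 (-4.92). The genes of C1q, made by macrophages, had at most 1 count. Cxcl12, the chemokine that retains blood stem cells in marrow, had 40953 and 206708 counts (2.40, 2.39 to 2.42). Il6 (45 and 12 counts, -1.84), Lif (-1.93), Ptgs2 (-2.43) and Ccl5 (-2.61) were called lower, so that 5 of 17 measured chemokine and inflammation genes were higher and 6 lower. C3, C4b and Cxcl12 rose over the 3 lines (edgeR adjusted p = 0.00344, 0.000582 and 0.00249).

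Transport and antioxidant proteins included some of the largest gains in CPM. Selenop, which encodes the selenium carrier selenoprotein P, had 7478 and 101806 counts (3.83), the iron storage subunit gene Fth1 83322 and 235967 (1.57), and Cst3, the gene for the protease inhibitor cystatin C, 14506 and 84226. Apoe, the apolipoprotein E gene, had 45 and 4053 counts (6.56, 6.14 to 7.02). Of 18 antioxidant genes 6 were called higher, among them the lipid peroxide reductase gene Gpx4 (17790 and 62160 counts, 1.87) and the glutathione transferase genes Gstm1 (1.78) and Mgst2 (18 and 251 counts, 3.87), and the cystine transporter Slc7a11, also of the ATF4 list, was called lower (-1.76). Gpx4 went the other way in shMLL1 (-0.26), without a test of the difference. The interferon response list had 5 of 23 members called higher and 2 lower in shControl, and its median was 0.47, against 3.33 in shNFIB and -1.43 in shMLL1. The shares over all protein-coding genes in shControl were 14.8% higher and 15.1% lower.

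Retinoid and angiotensin genes held several of the steepest ratios. Aldh1a1 and Aldh1a7, related aldehyde dehydrogenase genes of which Aldh1a1 makes retinoic acid, had 22 and 7685 counts (log2 ratio 8.52, 7.92 to 9.19) and 30 and 5699 (7.64). Dhrs3, which turns retinaldehyde back to retinol, had 597 and 6369 (3.48), while Cyp26b1, which degrades retinoic acid, had 581 and 187 (-1.57) and Crabp2, a retinoic acid carrier, 212 and 87 (-1.22). Of 10 measured retinoid genes 4 were thus higher and 2 lower, and the receptors Rara and Rarg were not called. Of 6 measured genes of the angiotensin system and membrane peptidases 4 were higher, namely Agt, the angiotensinogen gene, with 16 and 2604 counts (7.41), Dpep1 (7.15), Anpep (2.17) and Enpep (1.27). Ren1 and Agtr1a, for renin and the angiotensin receptor, had no counts.

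Signalling genes of the lineage showed changes on both sides. In the Wnt list 4 of 14 measured members were called higher and 4 lower, where 14.8% and 15.1% of all protein-coding genes were. Of the higher members Axin2, Nkd1 and Nkd2 passed the count limit through day 7 alone, which made a higher call likely. Rspo2, which amplifies Wnt signals, had 5447 and 14826 counts (log2 ratio 1.51), and its relative Rspo3 3900 and 967 (-1.94), while the feedback genes Axin2 (8 and 25), Nkd1 (14 and 84) and Nkd2 (0 and 30) were higher at low counts and the inhibitor genes Sfrp2 (682 and 133 counts, -2.29) and Frzb lower. In the BMP list Bmp4 had 1139 and 2874 counts (1.40), Smad5 879 and 2895 (1.79) and the BMP binding protein gene Bmper 500 and 1732 (1.86). The antagonist Grem1 had 3602 and 904 (-1.93), and Id1 and Id3, which BMP signals raise, were not called (-0.34 and -0.27). Bmp2 and Bmp7 had no counts. Smad5 rose and Rspo3 and Grem1 fell over the 3 lines (edgeR adjusted p = 0.00113, 0.0085 and 0.011).

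In the insulin-like growth factor list 6 of 13 measured genes were called higher and 3 lower. The binding protein genes Igfbp5 (241 and 943 counts, 2.04), Igfbp4 (1.72) and Igfbp3 (1.66) were higher, and Igfbp7 (-1.49), Igfbp6 (44 and 2 counts) and the decoy receptor Igf2r (-1.16) lower. Of the hedgehog genes Gli1, a direct target of the pathway, had 85 and 5 counts (-4.02, -5.68 to -2.74), and Gli3 1888 and 702 (-1.36). In the Notch list the target genes Hey1 (76 and 18 counts, -2.01) and Hey2 (93 and 16, -2.47) and the ligand Jag2 (132 and 39, -1.69) were lower. Dll1 (17 and 100 counts, 2.62) and Notch4 (19 and 90, 2.31) were higher. The target Hes1 (994 and 788 counts, -0.27), the ligand Jag1 and the receptors Notch1, Notch2 and Notch3 were not called. Gli1, Gli3 and Hey2 fell and Dll1 and Notch4 rose over the 3 lines (edgeR adjusted p of 0.00249 to 0.0251). Of 15 measured clock genes, beside Per1, the repressors Nr1d2 (-1.97), Ciart (-2.03) and Bhlhe40 (-1.02) and the activator Dbp (-1.73) were lower.

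The hairpin targets of the knockdown lines were little different between the days in shControl. Nfib had 3715 and 2546 counts (-0.48, -0.55 to -0.41) and Kmt2a 2387 and 2022 (-0.17, -0.26 to -0.09), neither called. Of 13 measured NFI genes and MLL complex subunits Nfic alone was called, with 9353 and 3019 counts (-1.56). Of 39 Hox genes 9 passed the count limit, all of them in the HoxA cluster, and Hoxa2 (469 and 1279 counts, 1.52) and Hoxa9 (13 and 66) were called higher. Of 10 measured imprinted growth genes 5 were lower, with Grb10 at 10904 and 2680 counts (-1.96), and Igf2 (4 and 42) was higher. Of 25 lysosomal genes 3 were higher and 1 lower, and of 19 immediate early and MAPK feedback genes 3 and 3. These numbers were near or below the 14.8% and 15.1% of all protein-coding genes.

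Genes that do not code for protein were called higher more often than protein-coding genes. Of 2668 such genes 1173 (44.0%) were called higher and 327 (12.3%) lower. By class, 336 of 522 antisense genes (64.4%), 200 of 408 lincRNA genes (49.0%), 22 of 32 snoRNA genes and 35 of 41 sense intronic genes were higher, and the medians of the antisense and lincRNA genes were 1.36 and 0.97. Processed pseudogenes, copies of mRNAs, were the exception with 87 of 795 higher (10.9%) and 198 lower (24.9%). The nuclear RNA Neat1 (chr19:5824708-5845478 on GRCm38, minus strand), the scaffold of paraspeckles, had 12011 counts at day 0 and 180302 at day 7 (3.98), and Malat1, of nuclear speckles, 11837 and 28550 (1.34). Neat1 rose over the 3 lines (edgeR adjusted p = 0.00322), with ratios of 2.51 in shNFIB and 2.56 in shMLL1. In shNFIB 41.9% of antisense, 32.9% of lincRNA and 37.8% of sense intronic genes were called higher, beside 14.1% of all genes. In shMLL1 these shares were 59.4%, 47.2% and 74.4%, beside 23.2% of all genes.

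**Figure D4:**
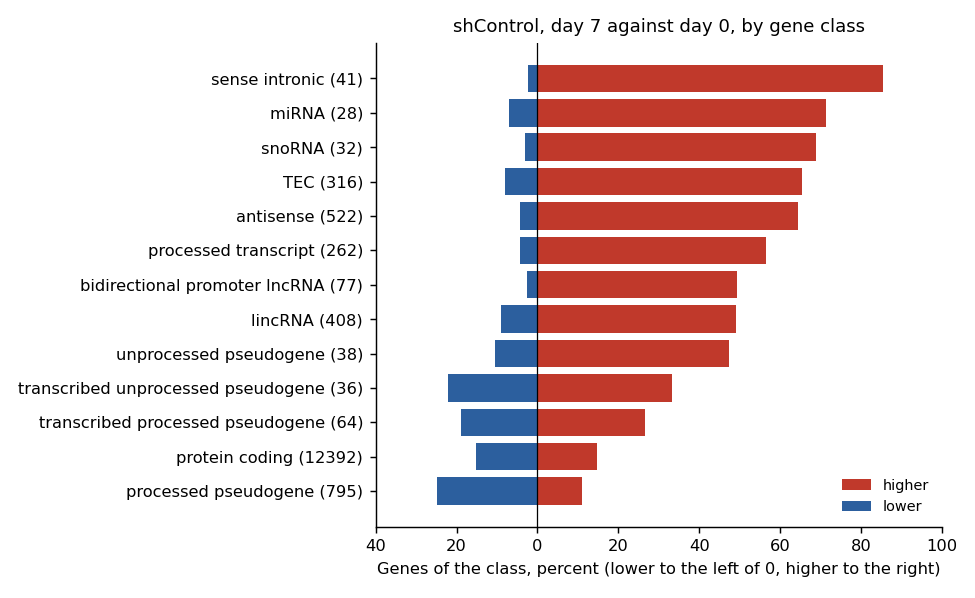
Share of the genes of each annotated class (horizontal axis, percent) called higher (red, to the right of 0) or lower (blue, to the left of 0) at day 7 in shControl, with the number of genes compared in brackets, for classes of 28 genes or more. In sense intronic genes 85.4% were called higher, in protein-coding genes 14.8%, and processed pseudogenes had more lower than higher calls.

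The share of higher calls also varied with the level of a gene. Below a mean of 1 CPM 51.0% of 675 protein-coding genes and 56.5% of 938 others were called higher, and between 10 and 100 CPM 8.34% of 7330 and 20.0% of 315. The difference between classes was thus smaller at a given level than over all genes. Below 1 CPM 21.2% of the protein-coding genes and 13.8% of the others were called lower. At low levels a gene passed the count limit more readily through its higher library, on either day, and the part of this in the shares was not tested. Of 401 antisense genes that overlap a gene on the other strand 261 were called higher, and 75 of 121 with no listed overlap. For 207 antisense genes called higher, the only listed overlap was a measured protein-coding gene on the other strand. Of these partners 35 were also called higher, where 14.8% of all protein-coding genes were. Antisense genes with more than 1 listed overlap were not counted here. Beside these counts, all but protein-coding genes held 2.91% of the counts at day 0 and 4.31% at day 7 in shControl, 2.41% and 3.46% in the shNFIB line, and 3.73% and 4.26% in the shMLL1 line. The part of these shares in the counts was not tested.

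Ratios in the knockdown lines show how far the shControl values recurred in other cells of the same origin, each line against its own day 0 library. In shNFIB 14.1% of 14575 genes were called higher and 13.1% lower, and in shMLL1 23.2% of 15166 and 19.3%. Of the 3018 genes higher in shControl 1492 (49.4%) were also higher in shNFIB, 72.7% of the calls there, and 2114 (70.0%) in shMLL1, 60.1% of the calls there. Of the 2205 lower genes 1272 (57.7%) and 1468 (66.6%) were lower there, 66.6% and 50.2% of the calls in those lines. All 3 lines had the same call for 1245 higher genes and 969 lower genes, and neither knockdown line had it for 657 and 434. The edgeR test over the lines called 2025 of the 3018 higher and 1693 of the 2205 lower in the same direction. Without the shControl line, it called 1004 genes higher and 1098 lower in place of 2713 and 2719.

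**Figure D5:**
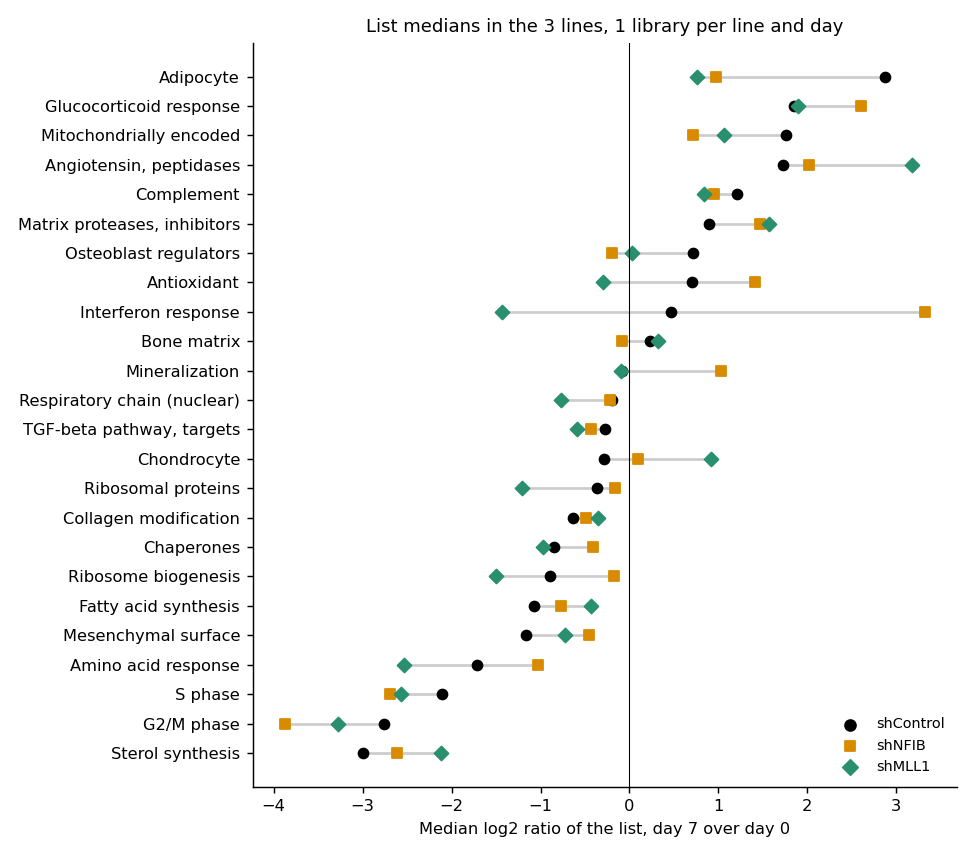
Median log2 ratio of day 7 over day 0 (horizontal axis) of the 24 gene lists in shControl (black circles), shNFIB (orange squares) and shMLL1 (green diamonds), with 1 library per line and day and no error bars. In every line the median was taken over the members that passed the count limit in shControl. The medians of the S phase, G2/M and sterol synthesis lists were below -2 in all 3 lines, and those of the interferon response list lay farthest apart, at 0.47 in shControl, 3.33 in shNFIB and -1.43 in shMLL1.

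Among the protein-coding genes with the steepest ratios were several of no list. Higher were Rarres2, the gene for the attractant chemerin (34 and 2986 counts, 6.52), Ifi207 (46 and 6198, 7.14), Ccbe1, of lymphatic growth (44 and 3371, 6.33), and Fam107a (265 and 15696, 5.96). Lower were Cdsn, which encodes the adhesion protein corneodesmosin (10416 and 300 counts, -5.05), the cell adhesion gene L1cam (1592 and 56, -4.76), the potassium channel gene Kcnj2 (2206 and 78, -4.75) and the protease inhibitor gene Serpinb1a (5539 and 214, -4.63). These 8 genes changed in the same direction over the 3 lines (edgeR adjusted p of 0.000582 to 0.0198). Among genes with 3 or fewer counts on one day, Hpca had 0 and 712 counts and Aox3 3 and 330 (6.85, 5.29 to 9.13), while the calcium pump gene Atp2a3 had 284 and 3 (-6.50, -8.78 to -4.94) and Car6, a carbonic anhydrase gene, 243 and 0, at least 77.3-fold lower.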

How the data were processed

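RNA-seq of 6 libraries (1 for each of the 3 lines shControl, shNFIB and shMLL1 on each day) was read from the deposited table of raw counts per gene, which the authors made from 100 bp paired reads with reads of a mapping quality over 30 kept and duplicates removed. Per the submitters' processing notes, the tools were Trimmomatic 0.39, HISAT2 2.2.1, SAMtools 1.12 and HTSeq 0.11.1 with GRCm38 (mm10). The annotation release and the strand setting were not given in the sources used here. Samples were grouped by their labels, and no column of the table was left unused.

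Counts were scaled by TMM over the 6 libraries (edgeR 4.0.16, R 4.3.3), and each shControl ratio was given the 95% Clopper-Pearson interval of its day 7 share of the counts (Python 3.11.15, scipy 1.17.1). The day effect over the 3 lines was tested by edgeR's quasi-likelihood method (filterByExpr, Benjamini-Hochberg adjustment at 5%) with the line as block, since the cells of both days came from the same line. The deviations of the libraries of a line correlated at 0.434 (shControl), 0.43 (shNFIB) and 0.271 (shMLL1). DESeq2 1.42.0 gave alternative size factors and an alternative test. The fits were tested on simulated data. Figures were drawn with matplotlib 3.10.9.

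The comparison, its members and the 51 gene lists were chosen with earlier results of these data known. Genes were named as list members or by rule: the 15 protein-coding genes with the largest ratio each way among those with 20 or more counts in both libraries, the 10 with the largest gain or loss in CPM, the 10 most abundant per library, the 10 protein-coding genes with the most counts in one library and 3 or fewer in the other, and the hairpin targets Nfib and Kmt2a. Positions and gene classes came from GENCODE M21 on GRCm38 (55141 of 55401 genes matched), and promoter sequence from RefSeq on GRCm38.p6. Counting precision follows from the depth, 20 counts being the least a gene compared had in its higher library. Some listed genes and 1 sequence are not reported here.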

Additional observations from a re-analysis of the deposited data

Results flagged for a closer look

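Igf1, the gene for insulin-like growth factor 1, and Epyc, a small leucine-rich proteoglycan gene, were called in one direction in shControl and in the other in both knockdown lines. Such opposite calls in both lines were found for 5 of the 3018 genes higher in shControl and 3 of the 2205 lower. For Igf1 the log2 ratio of day 7 over day 0 was 1.38 in shControl (1083 and 2691 counts), -4.65 in shNFIB and -4.85 in shMLL1. For Epyc it was -1.31 in shControl (39 and 15 counts), 1.19 in shNFIB and 5.44 in shMLL1. With 1 library per line and day, the difference between lines was not tested for either gene.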

How the results depend on the processing

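The numbers of genes called in shControl stayed within 1.5 times the reported 3018 and 2205 under library size alone (3295 higher and 1899 lower), DESeq2's size factors, TMM over the 2 libraries, a limit of 10 counts or none, the other rules on the interval and thinning to the smallest library. A limit of 100 counts gave 1610 higher genes, protein-coding genes alone 1840, and a ratio past 4-fold 1362 higher and 660 lower. Library size alone raised all log2 ratios alike by 0.10, which took 412 of 912 named or listed genes out of their counting intervals and turned the sign of uncalled genes just below 0, such as Srebf1 (-0.04) and Psrc1 (-0.06). Over the lines, the model with no replicate block called 1808 genes lower in place of 2719, and the change in higher genes (2100) was smaller, so pairing by line raised both counts. Leaving out 1 line at a time gave 1004 to 2583 higher genes and 1098 to 2673 lower genes, fewest without shControl, with fewer samples in each fit. DESeq2's test called 3210 higher and 3131 lower. The test rests on 2 residual degrees of freedom and on lines that differ by hairpin, and shControl by itself has no replicate, so its calls describe these libraries. Depth limits what can be said of genes near 20 counts, where a 2-fold ratio often lies within the counting interval.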
